A study of Mus musculus with 24 samples.

Results

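The genes described here encode the tubulins, which form microtubules, and the kinesin and dynein motors that walk along them. They were taken by gene name from the array annotation: every name starting with Tuba, Tubb, Tubg, Dync, Dynl, Klc or Dctn, and every Kif name followed by a digit. Of 27398 gene names on the array 80 met this rule, measured by 161 of 41174 probes. The rule used no measured value, although it was set with earlier results of these data known. By role they were 6 alpha tubulins, 7 beta tubulins, 2 gamma tubulins, 5 gamma tubulin complex proteins, 15 kinesins known for transport, 4 kinesin light chains, 11 kinesins of the mitotic spindle, 10 other kinesins, 7 dynein chains, 7 dynein light chains and 6 dynactin subunits.

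Microtubules are polymers of alpha and beta tubulin dimers, and gamma tubulin complexes start new ones. In an axon most transport kinesins carry cargo away from the cell body, whereas cytoplasmic dynein, helped by dynactin, carries cargo and injury signals back to it. Sensory neurons of the dorsal root ganglia (DRG) regrow their peripheral axons after a nerve lesion, and a growing axon needs new tubulin and a supply of transported material. A separate group of kinesins moves chromosomes and spindle fibres in dividing cells.

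Arrays were hybridised with RNA from the L4 and L5 DRGs of adult male mice on a C57BL/6J background, taken 2 or 5 days after the left sciatic nerve was cut and sutured, or in DRGs of the side that was not injured (control). KO mice lack *Nfil3*, a transcriptional repressor, in all cells, because floxed mice were crossed with a line in which a human CMV promoter drives Cre in germ cells. WT mice were littermates. Each of the 6 groups (WT control, WT day 2, WT day 5, KO control, KO day 2 and KO day 5) had 4 samples, 2 labelled with Cy3 and 2 with Cy5, on 12 arrays of 3 slides. The labels do not name the animals or say whether animals were pooled, so the p-values measure the spread between these samples. All levels below are log2 intensities after background correction and normalization between samples, and a difference of 1 is a 2-fold change.

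The *Nfil3* level was 8.44 to 9.01 in WT controls, 10.34 to 10.76 in WT at day 2 and 10.64 to 11.09 in WT at day 5, and 2.82 to 6.23 in KO samples other than KO control replicate 4, where it was 7.59. The title of that library says control and another label field says day 5, so it is called the library labelled KO control replicate 4. In 4 controls (WT replicates 2 and 4, KO replicates 1 and 4), each hybridised beside a lesioned sample on the same array, *Sprr1a*, a gene known for its rise after nerve lesion, was at 8.15 to 11.68, against 5.48 to 6.12 in the 4 controls that shared an array with another control. Counts are therefore also given without the library labelled KO control replicate 4 and with the latter 4 controls alone. The labels call the tissue DRG neurons, but markers of Schwann cells (6 of 6), satellite glia (5 of 5), macrophages (7 of 7) and fibroblasts (4 of 4) were well above background in all 24 samples, as were the 10 sensory neuron markers. In such whole ganglia, fewer cells of a type and less RNA per cell cannot be told apart. A spot is called well above background by the flag that the scanner software set, and 54.5% to 72.3% of probes met it per sample, with no saturated spot.

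At day 5 after the lesion 8 of the 15 alpha, beta and gamma tubulins were higher than in control, and *Tubg2* was lower. Of 36 kinesins 6 were lower and 3 higher, and of 20 dynein and dynactin genes 7 were lower and 2 higher. Over all gene names 10.2% were higher and 13% lower, or 15.2% and 19.6% with dim probes left out. The steepest rises were those of *Kif22*, a chromosome-binding kinesin, *Tubb6*, a beta tubulin found in many cell types, and *Tuba1c*, an alpha tubulin, which were 4.95 to 13.3 times higher at day 5. *Tubb3*, the neuronal beta tubulin, rose by 0.43 on the log2 scale, while *Kif5a*, a neuronal motor of fast axonal transport, fell by 0.54 and *Dync1i1*, the intermediate chain of neuronal dynein, fell by 0.70. None of the 80 genes differed between KO and WT past the threshold.

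Of the 80 genes, 64 were well above background in all 24 samples (80%, against 53.1% of all gene names), and 3 in none. A lesion effect over both time points, tested with limma's F test at a Benjamini-Hochberg adjusted p of 0.05 over all probes, was found for 34 of the 80 genes, when 26.2% of all gene names passed. At day 2, 10 genes were higher and 20 lower than in control (all gene names 22.1% called, 9.48% higher and 12.7% lower). At day 5, 13 were higher and 18 lower (all gene names 23.2% called, 10.2% higher and 13% lower). All 8 day 2 samples were above all 8 controls for 5 genes and below them for 8 (all gene names 3.77% and 2.76%), and the day 5 samples for 6 and 9 (all gene names 5.56% and 6.12%). With the processed signals that the scanner files hold, brought to a common 75th percentile, the 80 genes split evenly, with 15 higher and 15 lower at either time point (all gene names 11.3% higher and 12.6% lower at day 2, 11.9% and 12.5% at day 5). When dim probes, those with this background flag in fewer than 4 samples, were left out, 74 of the 80 genes remained. Of these, 11 were higher and 23 lower at day 2, against 14.7% and 19.8% of all gene names kept. At day 5, 13 were higher and 20 lower, against 15.2% and 19.6%. The shares called over all gene names were thus larger once dim probes were left out. The median difference of the 80 genes was -0.08 at both time points, and that of all gene names was -0.02 and -0.03. Without the library labelled KO control replicate 4, 31 genes passed the F test, 28 passed at day 2 and 28 at day 5. The shares over all gene names were not taken for that fit. With the 4 controls that shared an array with another control as the only controls, 26 passed the F test. In that fit 6 were higher and 18 lower at day 2 (all gene names 7.14% and 8.22%). At day 5, 10 were higher and 15 lower (all gene names 7.71% and 8.85%).

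**Figure D1:**
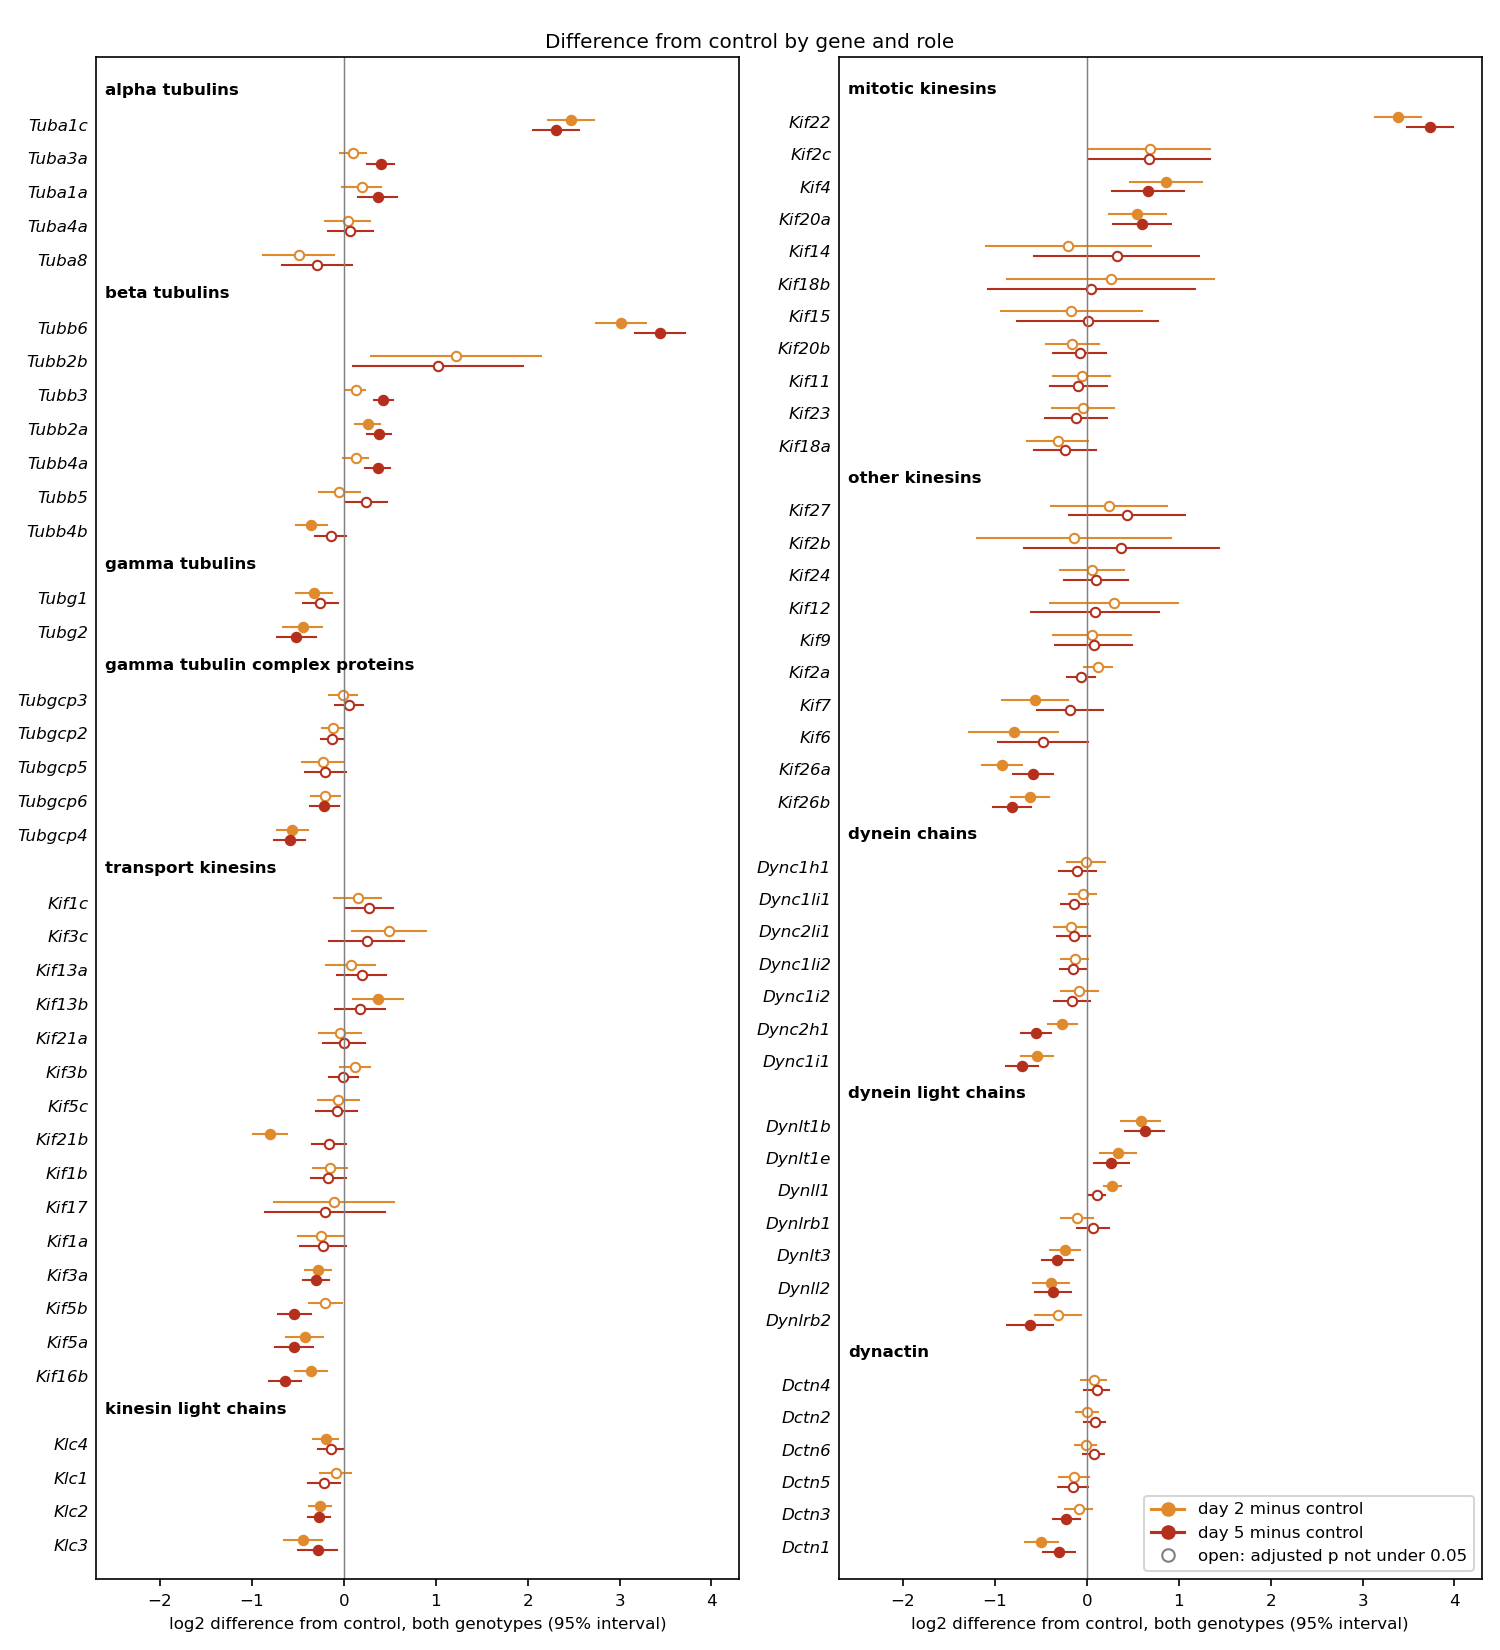
Difference in log2 intensity from control for each gene reported by name, grouped by role, at day 2 and day 5 over both genotypes (8 samples against 8), with 95% confidence intervals as bars and filled points where the adjusted p was under 0.05. *Tubb6*, *Tuba1c* and *Kif22* stand apart at differences of 2.31 to 3.73, while most of the other filled points lie within 1 of 0.

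Of the 7 beta tubulins 4 were higher at day 5 and none lower (all gene names 10.2% higher), with a median difference of 0.38. At day 2, 2 were higher and 1 lower. *Tubb6* (probe on chromosome 18) was at 10.28, 10.43, 10.48 and 10.64 in WT controls, at 13.60, 13.77, 13.30 and 13.56 in WT at day 2, and at 13.87, 14.08, 13.78 and 13.86 in WT at day 5. In KO it was at 10.33, 10.31, 10.22 and 10.80 in controls, at 13.60, 13.37, 12.67 and 13.74 at day 2, and at 13.52, 14.01, 13.97 and 13.90 at day 5. Every lesioned sample was above every control, and the highest control was the library labelled KO control replicate 4. The rise was 3.02 (SE 0.13, adjusted p = 1.53e-12) at day 2 and 3.44 (SE 0.13, adjusted p = 1.48e-13) at day 5, or 8.09-fold and 10.8-fold. In controls beside a lesioned sample *Tubb6* averaged 10.55, against 10.32 in those beside a control, and with the latter alone the rises were 3.13 and 3.55.

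*Tubb3* was high in every sample and its shift was small but even. Its probe lies at chr8:125945701-125945760 (mm9, plus strand). The 8 controls ran from 15.70 to 15.84 (median 15.80), the day 2 samples from 15.79 to 16.04 (median 15.93) and the day 5 samples from 16.14 to 16.29 (median 16.21), so that day 5 did not overlap with control whereas day 2 did. The difference was 0.13 (SE 0.05, adjusted p = 0.0714) at day 2 and 0.43 (SE 0.05, adjusted p = 2.24e-06) at day 5.

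*Tubb2a*, a beta tubulin abundant in neurons, rose by 0.26 (adjusted p = 0.00572) and 0.38 (adjusted p = 0.00016), from a median of 16.43 in controls to 16.69 at day 2 and 16.84 at day 5. Of the controls only WT replicate 1, at 16.58, reached the lowest lesioned sample, at 16.56. *Tubb4a* rose at day 5 by 0.37 (adjusted p = 0.000235), from 11.99 to 12.27 in controls to 12.26 to 12.61, after a difference of 0.13 at day 2 that did not pass. *Tubb4b*, the form also known from cilia, was the member that fell at day 2, by 0.35 (adjusted p = 0.00315), and stood at -0.14 at day 5. For *Tubb5* the differences of -0.05 and 0.24 did not pass.

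The coding sequences of beta tubulins are much alike, which shows in the probes. The brightest *Tubb2a* probe is listed in the array annotation for 4 genes, *Tubb2a*, *Tubb2b*, *Tubb3* and *Tubb6*, and shares a stretch of 25 bases (capitals), 22 of them identical, with a probe of *Tubb5*. The third sequence is a *Tubb2a* probe listed for *Tubb2a* alone.
Tubb2a shared probe: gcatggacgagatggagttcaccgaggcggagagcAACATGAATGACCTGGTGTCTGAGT
Tubb5 probe: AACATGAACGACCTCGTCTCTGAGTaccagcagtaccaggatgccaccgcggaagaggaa
Tubb2a single-gene probe: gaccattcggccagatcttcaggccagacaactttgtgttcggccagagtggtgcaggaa
The shared *Tubb2a* probe gave the rises of 0.26 and 0.38. The single-gene probe rose by 0.67 and 0.84, and the other *Tubb2a* probe by 0.59 and 0.60, so that all *Tubb2a* probes rose and the shared probe rose least. The *Tubb5* probe shown here differed from control by 0.05 and 0.15, and neither value passed. The second probe named *Tubb6* by the annotation, which maps to the opposite strand, fell by 0.46 and 0.54 (adjusted p = 0.00761 and 0.00207), and *Tubb6* was the only 1 of 51 genes with several probes whose probes passed in opposite directions.

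*Tubb2b*, a beta tubulin of growing neurons, differed more between slides than between time points. The controls ran from 10.07 to 12.56, those on slide 3 from 11.97 to 12.56 and those on the other slides from 10.07 to 10.71. Day 2 samples ran from 11.44 to 13.57 and day 5 samples from 11.52 to 13.43. Over all samples the differences of 1.22 (SE 0.44, adjusted p = 0.0554) and 1.02 (SE 0.44, adjusted p = 0.113) did not pass. With the slide as a block they were 1.18 (SE 0.11, adjusted p = 3.41e-07) and 1.26 (SE 0.11, adjusted p = 7.22e-08), and within slides 1, 2 and 3 the day 5 difference was 1.31, 1.34 and 1.10. The slide itself passed for 10 of the 80 genes (12.5%, against 13.6% of all gene names), and for *Tubb2b* slide 3 exceeded slide 1 by 1.87 (adjusted p = 2.09e-09).

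**Figure D2:**
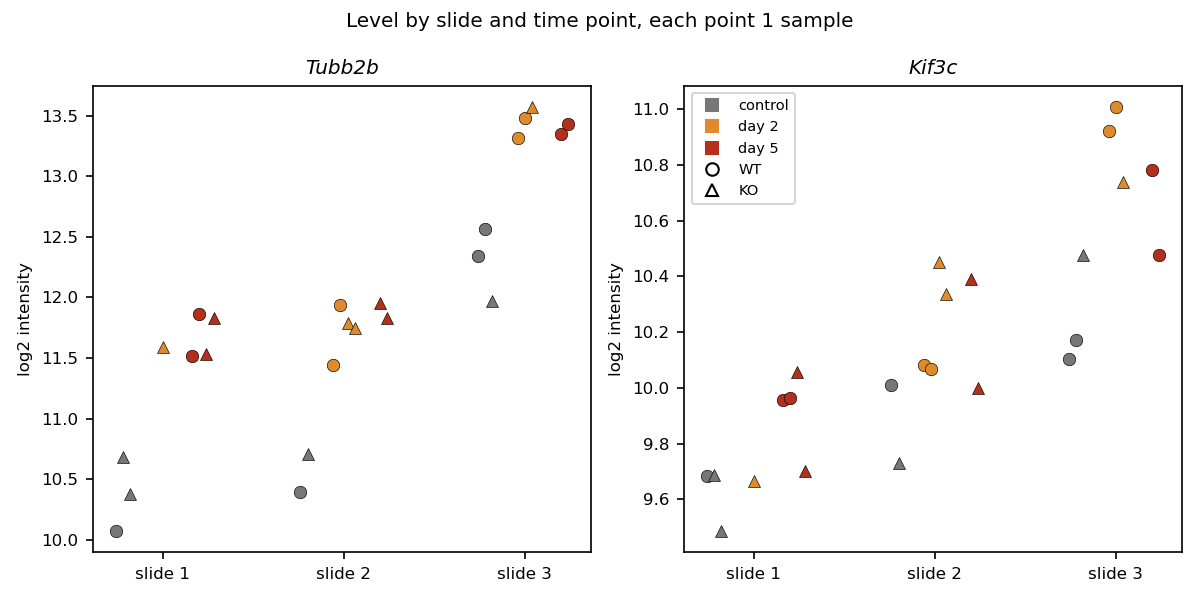
Log2 intensity of *Tubb2b* and of *Kif3c* in each of the 24 samples, split by slide and by control, day 2 and day 5. *Tubb2b* controls on slide 3 (11.97 to 12.56) reach the level of lesioned samples on slides 1 and 2, while within each slide the lesioned samples lie above the controls.

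Among the alpha tubulins 4 of 6 were higher at day 5 and none lower (all gene names 10.2% higher), with a median difference of 0.38. At day 2, 1 was higher (all gene names 9.48%). *Tuba1c* (chr15:98868480-98868536, mm9, plus strand) was at 11.64, 11.61, 11.99 and 12.25 in WT controls, and WT at day 5 averaged 14.19 (SD 0.16, n = 4). In KO the controls were at 11.88, 11.62, 11.97 and 12.14 and the day 5 samples at 13.84, 14.30, 14.42 and 14.24. The day 2 samples of both genotypes, from 14.09 to 14.74, were as high. The rise was 2.47 (SE 0.12, adjusted p = 7.45e-12) at day 2 and 2.31 (SE 0.12, adjusted p = 1.69e-11) at day 5, with no overlap with control at either time point.

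*Tuba1c* had a second probe, and the probes differed in the size of the change. The brightest probe lies at the end of the transcript, and the 30 of its 60 bases shown here hold a polyadenylation signal (capitals). The other lies in coding sequence, where alpha tubulins are nearly the same.
Tuba1c end probe, part: tcctaaactgtcAATAAAggtgtttccgtt
The coding probe differed from control by 0.09 (adjusted p = 0.716) at day 2 and rose by 0.66 (adjusted p = 0.000916) at day 5, against 2.47 and 2.31 on the end probe. The rise of *Tuba1c* at day 2 therefore rests on the end probe.

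*Tuba1a*, the main alpha tubulin of neurons, rose at day 5 by 0.37 (SE 0.10, adjusted p = 0.0107), from 16.61 to 16.93 in controls to 16.78 to 17.49. The ranges overlapped, and with only the 4 controls that shared an array with a control the difference of 0.34 did not pass (adjusted p = 0.102). *Tuba3a*, whose probe is also listed for *Tuba3b*, rose by 0.40 at day 5 (adjusted p = 0.000182) with no overlap, from 14.89 to 15.23 in controls to 15.36 to 15.62. Its dimmer probe stood at -0.22 without passing, and with the probes averaged the difference was 0.09 (adjusted p = 0.321). The day 2 differences of *Tuba1a* (0.20) and *Tuba3a* (0.10) did not pass. *Tuba8* stood at -0.49 and -0.29 and *Tuba4a* at 0.04 and 0.07, neither past the threshold, and with the slide as a block *Tuba8* passed at day 2 (-0.56, adjusted p = 0.034). Both dimmer probes of *Tuba4a* were lower at day 5, by -0.40 and -0.34.

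**Figure D3:**
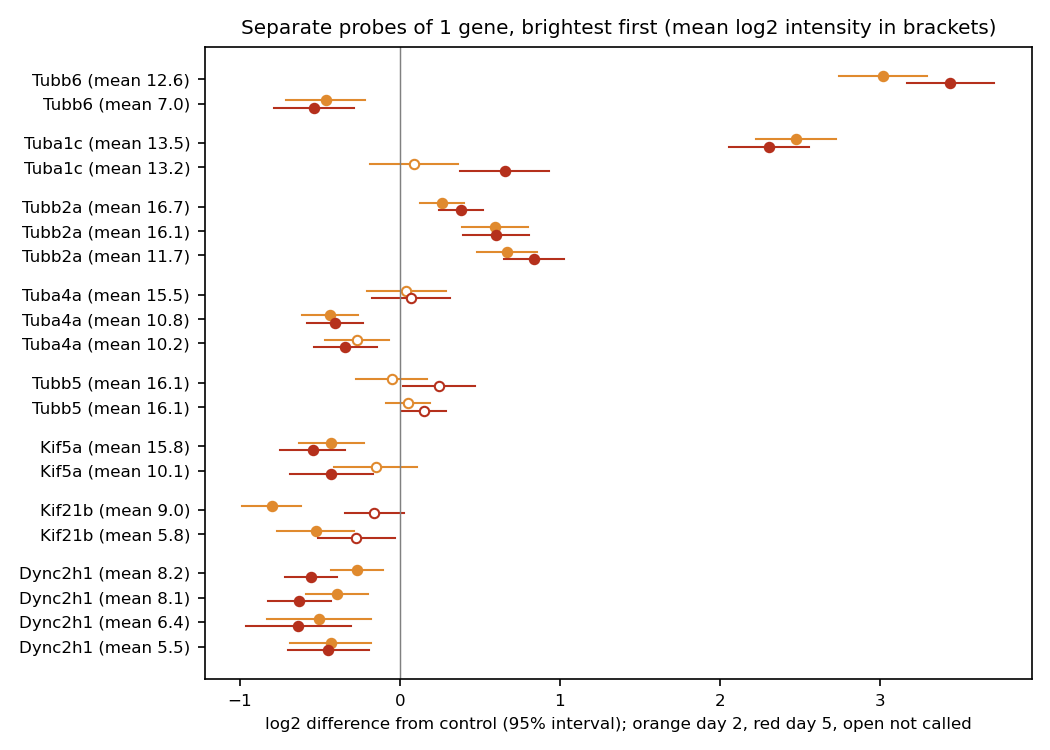
Difference from control at day 2 and day 5 for the separate probes of 8 genes, with 95% confidence intervals. The probes of *Tubb2a* all lie above 0, those of *Tubb6* lie on both sides of 0, and the coding probe of *Tuba1c* (0.09 and 0.66) lies far under its end probe (2.47 and 2.31).

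Both gamma tubulins fell at day 2, *Tubg1* by 0.32 (adjusted p = 0.0156) and *Tubg2*, the form enriched in brain, by 0.45 (adjusted p = 0.00297). At day 5 *Tubg2* was lower by 0.52 (adjusted p = 0.000697), at 9.20 to 9.55 against 9.72 to 10.15 in controls, with no overlap, and *Tubg1* stood at -0.25 (adjusted p = 0.0549), or at -0.28 (adjusted p = 0.0112) with the slide as a block. Of the 5 gamma tubulin complex proteins, *Tubgcp4* fell at both time points, by 0.56 (adjusted p = 3.82e-05) and 0.59 (adjusted p = 1.59e-05). Its controls were at 9.24 to 9.58, its day 2 samples at 8.56 to 9.19 and its day 5 samples at 8.75 to 9.10, all lesioned samples being below all controls. *Tubgcp6* was lower at day 5 (-0.21, adjusted p = 0.0489), but not with only the controls beside a control (adjusted p = 0.0989). With its probes averaged it did not pass either (-0.12, adjusted p = 0.403). *Tubgcp2*, *Tubgcp3* and *Tubgcp5* did not pass, with differences from -0.23 to 0.06.

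**Figure D4:**
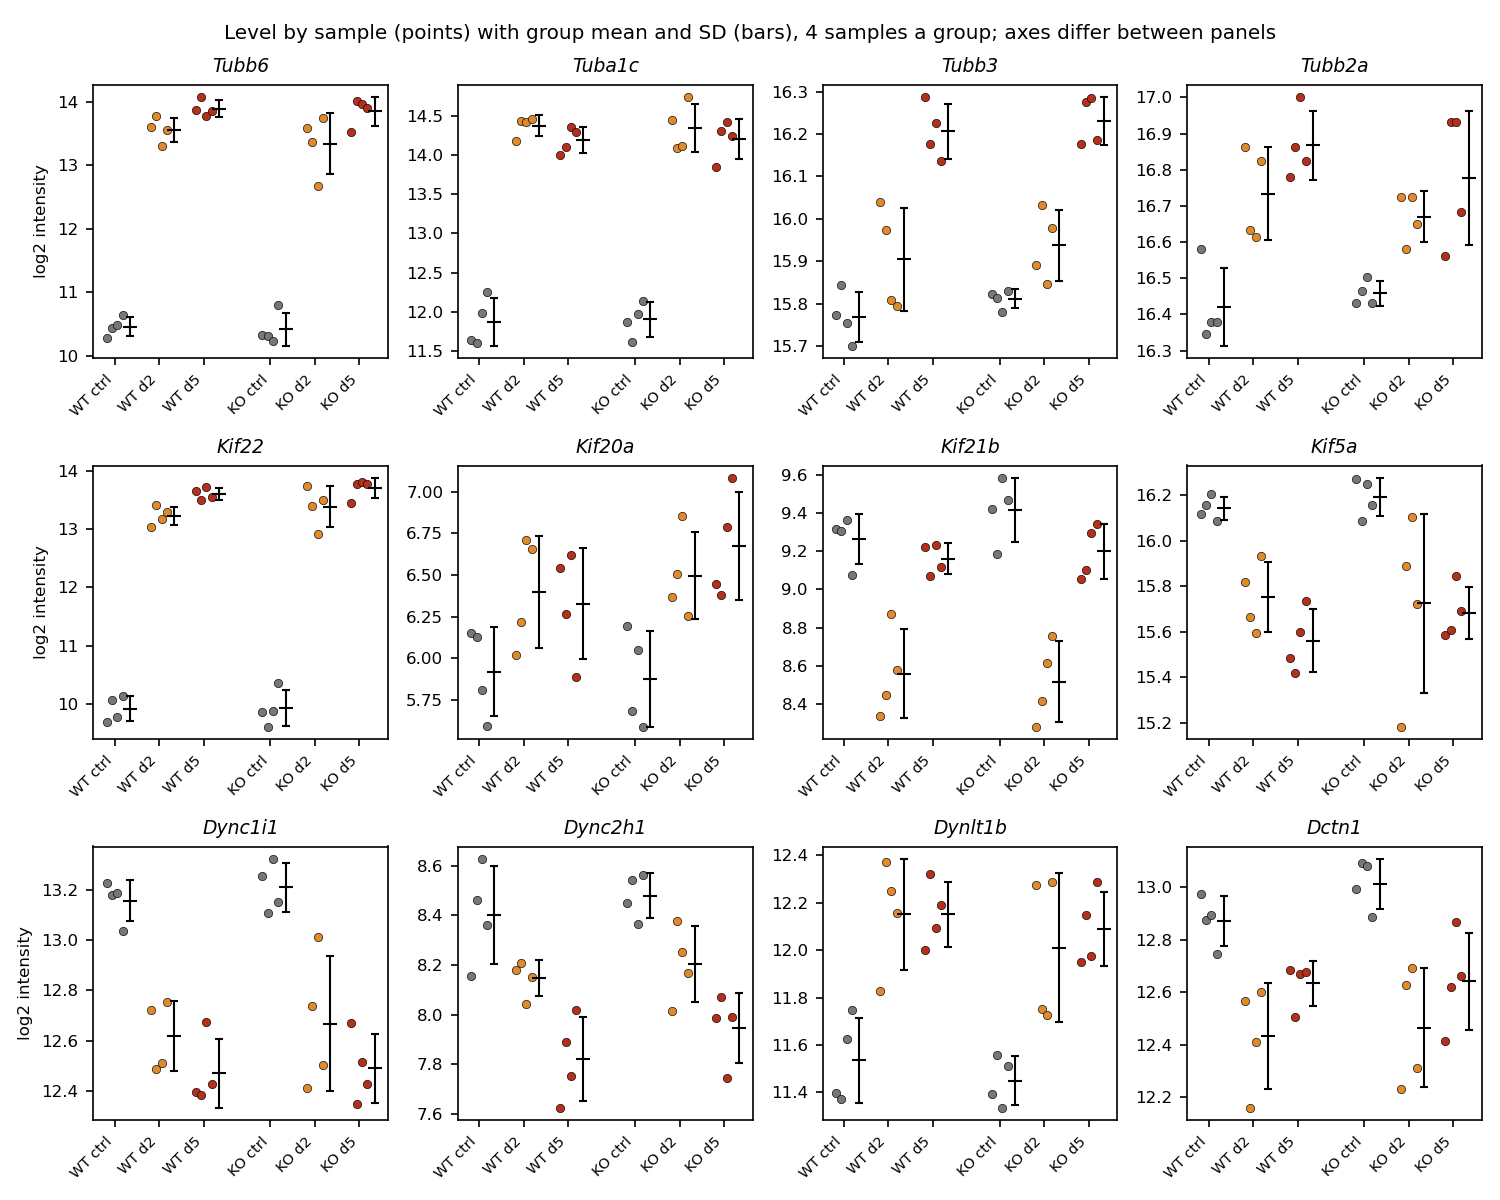
Log2 intensity of 12 genes in each sample of the 6 groups (4 samples each, points, with the group mean as a line). *Tubb6*, *Tuba1c* and *Kif22* separate control from lesioned samples in both genotypes, *Kif21b* is lowest at day 2, and *Kif5a* and *Dync1i1* are lower at both time points.

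Of the 15 transport kinesins, 1 was higher and 4 lower at day 2, and 4 were lower at day 5, with medians of -0.10 and -0.16. Over all gene names 12.7% were lower at day 2 and 13% at day 5, or 19.8% and 19.6% with dim probes left out. Of these 15 kinesins 14 were well above background in all 24 samples. *Kif5a* (chr10:126662797-126662856, mm9, minus strand) was at 16.12, 16.16, 16.20 and 16.09 in WT controls, 15.82, 15.67, 15.59 and 15.93 in WT at day 2, and 15.49, 15.42, 15.60 and 15.73 in WT at day 5. The KO controls were at 16.27, 16.09, 16.25 and 16.16, the KO day 2 samples at 15.18, 15.89, 16.10 and 15.72, and the KO day 5 samples at 15.59, 15.61, 15.84 and 15.69. All day 5 samples were below all controls, and at day 2 only KO replicate 3 reached the controls. The difference was -0.43 (SE 0.10, adjusted p = 0.00338) at day 2 and -0.54 (SE 0.10, adjusted p = 0.000305) at day 5. The dimmer *Kif5a* probe stood at -0.15 at day 2, which did not pass, and fell by 0.43 at day 5 (adjusted p = 0.0153).

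*Kif5b*, the form of the same motor that most cells use, fell only by day 5 (-0.20, adjusted p = 0.106, and -0.54, adjusted p = 8.03e-05), from 14.20 to 14.64 in controls to 13.69 to 14.12. For *Kif5c*, the other neuronal form, the differences of -0.06 and -0.08 did not pass, with an SE of 0.11. *Kif16b*, a motor of endosomes, fell by 0.36 (adjusted p = 0.004) and 0.64 (adjusted p = 9.47e-06), from 7.63 to 8.08 in controls to 7.33 to 7.57 and 6.74 to 7.40, with no overlap. *Kif3a*, a kinesin-II subunit, fell by 0.28 (adjusted p = 0.00543) and 0.30 (adjusted p = 0.00214) on its brighter probe, but stood at -0.06 and -0.02 on the other, and with the probes averaged neither time point passed (adjusted p = 0.0901 and 0.1). The values of its partners *Kif3b* (0.12 and -0.00) and *Kif3c* (0.49 and 0.25) did not pass. With the slide as a block *Kif3c* was higher by 0.42 (adjusted p = 0.00777) and 0.35 (adjusted p = 0.0177). Within slides 1, 2 and 3 its difference was 0.05, 0.36 and 0.64 at day 2 and 0.30, 0.33 and 0.38 at day 5. The only day 2 sample on slide 1 was KO day 2 replicate 3, so the 0.05 rests on that sample.

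*Kif21b*, a neuronal kinesin, was lower at day 2 and near control at day 5. It was at 9.07 to 9.58 in controls (median 9.34), 8.28 to 8.87 at day 2 (median 8.51) and 9.05 to 9.34 at day 5 (median 9.17). Day 2 overlapped with neither of the others. The differences were -0.80 (SE 0.09, adjusted p = 1.3e-06) at day 2 and -0.16 (SE 0.09, adjusted p = 0.24) at day 5. A second probe fell by 0.53 at day 2 (adjusted p = 0.00219) and stood at -0.27 at day 5. *Kif13b* was higher at day 2 by 0.37 (adjusted p = 0.0459), a call that was lost without the library labelled KO control replicate 4 (adjusted p = 0.0503), with only the controls beside a control (0.126) and with the slide as a block (0.0745). With its probes averaged it did not pass either (adjusted p = 0.359). *Kif1a* and *Kif1b*, carriers of synaptic vesicle precursors, were at -0.25 and -0.15 at day 2 and at -0.23 and -0.17 at day 5, and they, *Kif1c*, *Kif13a*, *Kif17* and *Kif21a* did not pass.

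The kinesin light chains, which link the Kif5 motors to cargo, were lower where they passed: 3 of 4 at day 2 and 2 of 4 at day 5 (all gene names 12.7% and 13% lower). *Klc2* fell by 0.26 (adjusted p = 0.00314) and 0.27 (adjusted p = 0.0018), and *Klc3* by 0.44 (adjusted p = 0.00297) and 0.28 (adjusted p = 0.0492). *Klc4* fell at day 2 by 0.20 (adjusted p = 0.0363), and *Klc1* stood at -0.09 and -0.22 without passing. Without the library labelled KO control replicate 4 the calls of *Klc3* at day 5 (adjusted p = 0.102) and of *Klc4* (adjusted p = 0.0524) were lost.

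Markers of sensory neurons fell in the same samples. Of 10 such markers 9 were lower at day 2 and 7 at day 5 (all gene names 12.7% and 13%), with median differences of -0.52 and -0.64. Their summed intensity on the linear scale was 453184 to 573133 in controls, 359245 to 434477 at day 2 and 326990 to 435011 at day 5, with no overlap with control. In the day 5 samples the neuronal tubulins *Tubb3* and *Tuba1a* were higher, *Tuba1a* not with only the controls beside a control (adjusted p = 0.102). The part of the fall in neuronal markers in these and in the lower motor and gamma tubulin values was not tested.

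The mitotic kinesins were split. Of 11, 3 were higher at both time points (*Kif22*, *Kif20a* and *Kif4*), none was lower, and the medians were -0.04 and 0.05. Over all gene names 9.48% were higher at day 2 and 10.2% at day 5. *Kif22* binds chromosomes and pushes them along the spindle, and its single probe lies at chr7:134171293-134171352 (mm9, minus strand). It was at 9.69, 10.06, 9.78 and 10.14 in WT controls, 13.04, 13.41, 13.17 and 13.29 in WT at day 2, and 13.65, 13.49, 13.72 and 13.55 in WT at day 5. In KO it was at 9.87, 9.61, 9.87 and 10.36 in controls, 13.73, 13.40, 12.91 and 13.50 at day 2, and 13.45, 13.78, 13.82 and 13.78 at day 5. No lesioned sample came near a control, and the highest control was again the library labelled KO control replicate 4. The rise was 3.39 (SE 0.12, adjusted p = 6.3e-14), or 10.5-fold, at day 2 and 3.73 (SE 0.12, adjusted p = 9.55e-15), or 13.3-fold, at day 5. Controls beside a lesioned sample averaged 10.11 and those beside a control 9.74, and with the latter alone the rises were 3.57 and 3.92.

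*Kif20a*, a kinesin of the late spindle and of cell division, rose by 0.55 (SE 0.15, adjusted p = 0.0113) and 0.60 (SE 0.15, adjusted p = 0.00508). It was at 5.59 to 6.19 in controls, 6.02 to 6.86 at day 2 and 5.88 to 7.08 at day 5, with overlapping ranges. *Kif4*, a chromosome-bound kinesin, rose by 0.86 (SE 0.19, adjusted p = 0.00224) and 0.67 (SE 0.19, adjusted p = 0.0134), from 3.12 to 4.76 in controls to 4.78 to 5.73 and 4.55 to 5.54, and it was well above background in 21 of 24 samples. With its probes averaged, the other being well above background in 1 sample, the differences were 0.66 and 0.34, and the latter did not pass (adjusted p = 0.134). *Kif11* and *Kif23*, core motors of spindle and midzone, were well above background in 20 and 21 samples, and their differences lay between -0.11 and -0.04 without passing. The other mitotic kinesins were well above background in few samples: *Kif20b* in 16, *Kif18a* in 6, *Kif2c* in 3, and *Kif14*, *Kif15* and *Kif18b* in none, and for the last 3 a change was not detectable. Markers of dividing cells rose too. Of the 9 such markers found, 5 were higher at both time points (all gene names 9.48% at day 2 and 10.2% at day 5), *Mki67* by 0.98 and 0.93. The summed linear intensity of the 9 was 1027 to 1263 in controls, 1505 to 2314 at day 2 and 1436 to 2578 at day 5. Of these 9 markers 5 were well above background in all 24 samples, while *Cdk1* and *Aurkb* were so in 3 and 2 of 24. The part of dividing cells in the rise of *Kif22* was not tested.

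Promoters were read from RefSeq sequences (GRCm38.p6), 250 bases before to 50 after each start site. Of the 80 genes 62 were matched, with 69 promoters. The CHR element of cell cycle genes (TTTGAA, or TTCAAA on the other strand) was in the promoters of 9 of the 10 matched mitotic kinesins, against 17.9% of all promoters and 20.3% of those of the matched genes. The CCAAT box (CCAAT or ATTGG), which often stands upstream of it, was in 37.4% of all promoters and in 40.6% of those of the matched genes. *Kif22*, which rose, and *Kif11*, which did not pass, both have the pair (capitals), shown in the 100 bases before the start site at chr7:127042421-127042520 (minus strand) and chr19:37376282-37376381 (plus strand).
Kif22: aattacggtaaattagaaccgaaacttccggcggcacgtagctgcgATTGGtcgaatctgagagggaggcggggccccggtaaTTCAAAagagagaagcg
Kif11: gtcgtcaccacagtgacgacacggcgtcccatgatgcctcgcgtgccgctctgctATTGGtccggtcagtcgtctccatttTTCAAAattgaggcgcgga
A role of the pair in these values was not tested.

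The cAMP response element (CRE, TGACGTCA), a site for the activator CREB which the study names as opposed by NFIL3, was found in 6 of the 69 promoters (8.7%, against 1.79% of all promoters): those of *Tubb2a*, *Klc1*, *Kif5c*, *Kif17*, *Kif18a* and *Dctn3*. *Tubb2a* rose, *Dctn3* was lower at day 5, and the other 4 did not pass. The palindromic NFIL3 site TTACGTAA was in none of the 69 (all promoters 0.119%), and the AP-1 letters TGACTCA or TGAGTCA were likewise in none (all promoters 5.2%). The CRE (capitals) of *Tubb2a* lies in the 100 bases at chr13:34078009-34078108 (minus strand). The same stretch for *Tubb3*, at chr8:123411453-123411552 (plus strand), holds a CCAAT box and no CRE.
Tubb2a: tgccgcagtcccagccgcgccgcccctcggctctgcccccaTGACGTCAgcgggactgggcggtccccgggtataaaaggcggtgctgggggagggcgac
Tubb3: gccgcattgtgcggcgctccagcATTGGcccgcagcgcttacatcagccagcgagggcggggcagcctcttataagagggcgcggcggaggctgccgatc
Both genes rose at day 5 in both genotypes, and a match in such a window is a description of its letters only.

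Of the 10 other kinesins, 4 were lower at day 2 and 2 at day 5 (all gene names 12.7% and 13%), and none was higher. *Kif26a*, which is known for holding back growth factor signals in enteric neurons, fell by 0.92 (SE 0.10, adjusted p = 1.74e-06) and 0.59 (adjusted p = 0.000238). It was at 6.49 to 6.92 in controls, 5.50 to 5.98 at day 2 and 5.67 to 6.49 at day 5. Its relative *Kif26b* fell by 0.62 (adjusted p = 0.000121) and 0.81 (SE 0.10, adjusted p = 3.93e-06), from 8.31 to 8.52 in controls to 7.40 to 8.26 and 7.44 to 7.75. For each of these genes the dimmer probe did not pass, at 0.04 and -0.17 for *Kif26a* and at -0.22 and -0.11 for *Kif26b*. *Kif6* (-0.79, adjusted p = 0.0179) and *Kif7* (-0.56, adjusted p = 0.0242), the latter a kinesin of cilia, were lower at day 2 and were well above background in 14 and 17 samples. With the probes averaged neither passed at day 2 (adjusted p = 0.0583 and 0.287). *Kif2a*, which takes microtubule ends apart, stood at 0.12 and -0.06, and *Kif2b*, *Kif9*, *Kif12*, *Kif24* and *Kif27* did not pass either.

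Of the 7 dynein heavy, intermediate and light intermediate chains, 2 were lower at both time points (all gene names 12.7% at day 2 and 13% at day 5). *Dync1i1* (chr6:5977730-5977789, mm9, plus strand) was at 13.23, 13.18, 13.19 and 13.04 in WT controls and 12.40, 12.38, 12.67 and 12.43 in WT at day 5. In KO it was at 13.26, 13.11, 13.32 and 13.15 in controls and 12.67, 12.35, 12.52 and 12.43 at day 5. The day 2 samples ran from 12.41 to 13.01, and no lesioned sample reached the lowest control. The difference was -0.54 (SE 0.08, adjusted p = 6.78e-05) at day 2 and -0.70 (SE 0.08, adjusted p = 2.28e-06) at day 5. *Dync2h1*, the heavy chain of the dynein of cilia, fell by 0.27 (adjusted p = 0.0175) and 0.56 (adjusted p = 1.87e-05), and the 4 of its 9 probes that were well above background in every sample all fell at both time points. *Dync1h1*, the heavy chain of cytoplasmic dynein, stood at -0.01 and -0.10 (SE 0.10), and *Dync1i2*, the intermediate chain of most cells, at -0.08 and -0.16 (SE 0.09). These, *Dync1li1*, *Dync1li2* and *Dync2li1* did not pass, and with the slide as a block *Dync2li1* passed at day 5 (-0.18, adjusted p = 0.037).

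The dynein light chains moved in both directions. *Dynlt1b* rose by 0.59 (SE 0.10, adjusted p = 0.000258) and 0.63 (SE 0.10, adjusted p = 0.000103), from 11.33 to 11.75 in controls to 11.73 to 12.37 and 11.95 to 12.32. Its probe is listed for *Dynlt1a*, *Dynlt1b* and *Dynlt1c*, which cannot be told apart here. The gene named *Dynlt1e* on the array, whose probe RefSeq lists for *Dynlt1f*, rose by 0.34 (adjusted p = 0.0109) and 0.27 (adjusted p = 0.0417), the latter call being lost without the library labelled KO control replicate 4 (adjusted p = 0.0714). *Dynll1*, a light chain shared with many other complexes, rose at day 2 by 0.28 (SE 0.05, adjusted p = 0.000136), with all day 2 samples (15.18 to 15.36) above all controls (14.85 to 15.12), and stood at 0.11 at day 5 (adjusted p = 0.0931). *Dynll2* fell by 0.39 (adjusted p = 0.00485) and 0.37 (adjusted p = 0.0056) on 1 of its 3 probes, and with the probes averaged it stood at -0.27 and -0.20 without passing. *Dynlt3* fell by 0.24 (adjusted p = 0.041) and 0.32 (adjusted p = 0.00548). *Dynlrb2* stood at -0.31 at day 2 and fell by 0.62 at day 5 (adjusted p = 0.000694), to 5.63 to 6.07 from 6.35 to 6.66, whereas *Dynlrb1* did not pass.

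Of the 6 dynactin subunits, *Dctn1*, the large subunit that holds microtubules, fell by 0.49 (SE 0.08, adjusted p = 0.000219) and 0.30 (adjusted p = 0.0111). Its controls were at 12.74 to 13.09, its day 2 samples at 12.16 to 12.69, all below the controls, and its day 5 samples at 12.41 to 12.87, which overlapped. *Dctn3* was lower at day 5 by -0.22 (adjusted p = 0.0279), a call lost without the library labelled KO control replicate 4 (adjusted p = 0.0614) and with only the controls beside a control (adjusted p = 0.183). *Dctn2*, *Dctn4*, *Dctn5* and *Dctn6* had differences between -0.15 and 0.11 that did not pass, although a dimmer probe of *Dctn4* was higher at day 2 by 0.24 (adjusted p = 0.0196).

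Between day 2 and day 5, 6 of the 80 genes differed (all gene names 3.28% called, 2.24% higher and 1.04% lower). *Tubb3* (0.30, adjusted p = 0.00145), *Tuba3a* (adjusted p = 0.0181) and *Kif21b* (0.64, adjusted p = 0.000176) were higher at day 5, while *Kif5b* (-0.34, adjusted p = 0.0344), *Dync2h1* (-0.29, adjusted p = 0.0453) and *Dynll1* (-0.17, adjusted p = 0.0478) were lower. Macrophage markers also differed between these times: 3 of 7 were above control at day 2 and 7 of 7 at day 5 (all gene names 9.48% and 10.2% higher). Their summed linear intensity was 7504 to 12152 in controls, 6020 to 19991 at day 2 and 20859 to 31803 at day 5. Their part in the differences between day 2 and day 5 was not tested.

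The question of the study, whether loss of *Nfil3* changes the response to the lesion, was put to these genes through the same contrast in each genotype. From a time course analysis in SAM and the limma interaction, the study reported a small set of genes that differed between genotypes. SAM was not run here. In WT, 17 genes passed at day 2 (7 higher and 10 lower, all gene names 11% called, 5.23% higher and 5.77% lower) and 20 at day 5 (10 higher and 10 lower, all gene names 13.9% called, 6.41% higher and 7.45% lower). In KO, 16 passed at day 2 (6 higher and 10 lower, all gene names 11.8% called, 5.5% higher and 6.27% lower) and 22 at day 5 (9 higher and 13 lower, all gene names 12.7% called, 6.06% higher and 6.64% lower). Both genotypes shared 11 called genes at day 2 and 17 at day 5, each in the same direction, and over all gene names the 2154 and 2871 shared calls also had the same direction without exception. Without the library labelled KO control replicate 4, 12 passed in KO at day 2 and 16 at day 5. With only the controls beside a control, 2 a genotype, 8 and 12 passed in WT and 9 and 10 in KO. For these reduced sets of controls the shares over all gene names in each genotype were not taken.

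The lesion changes of the leading genes were close in the 2 genotypes. At day 5 *Kif22* rose by 3.69 in WT and 3.78 in KO, *Tubb6* by 3.44 and 3.44, *Tuba1c* by 2.32 and 2.30 and *Tubb3* by 0.44 and 0.42, while *Dync1i1* fell by 0.69 and 0.72. The KO minus WT difference in level at day 5 was 0.10 for *Kif22* (95% confidence interval -0.25 to 0.45), -0.05 for *Tubb6* (-0.43 to 0.34), 0.02 for *Tuba1c* (-0.34 to 0.37), 0.02 for *Tubb3* (-0.12 to 0.17), 0.12 for *Kif5a* (-0.17 to 0.41) and 0.02 for *Dync1i1* (-0.22 to 0.26). The interval for *Tubb3* thus allows a difference of at most 0.17, and that for *Tubb6* one of up to 0.43.

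No gene of the 80 passed for KO minus WT in control, at day 2 or at day 5, or for the time*genotype interaction, in limma, and over all gene names 0, 4 (0.0146%), 3 (0.0109%) and 0 passed. At an unadjusted p under 0.05 there were 1, 1, 1 and 0 of the 80 genes, when 1.7%, 3.81%, 2.38% and 2.12% of all gene names were under it. The gene in control was *Kif2c* at -1.18, well above background in 3 of 24 samples, and without the library labelled KO control replicate 4 its difference was -0.50. The gene at day 2 was *Kif15*, well above background in no sample, and that at day 5 was the one named *Dynlt1e*, with a probe listed for *Dynlt1f*, at -0.28 (95% confidence interval -0.55 to -0.01). The deleted gene *Nfil3*, by its brightest probe, stood at -3.98 in control without passing in limma (adjusted p = 0.9999). For the interaction *Nfil3* did not pass either (adjusted p = 0.999979), while it passed at day 2 (adjusted p = 0.00819) and day 5 (adjusted p = 0.00259). A count of 0 in control or for the interaction therefore does not exclude a large difference.

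**Figure D5:**
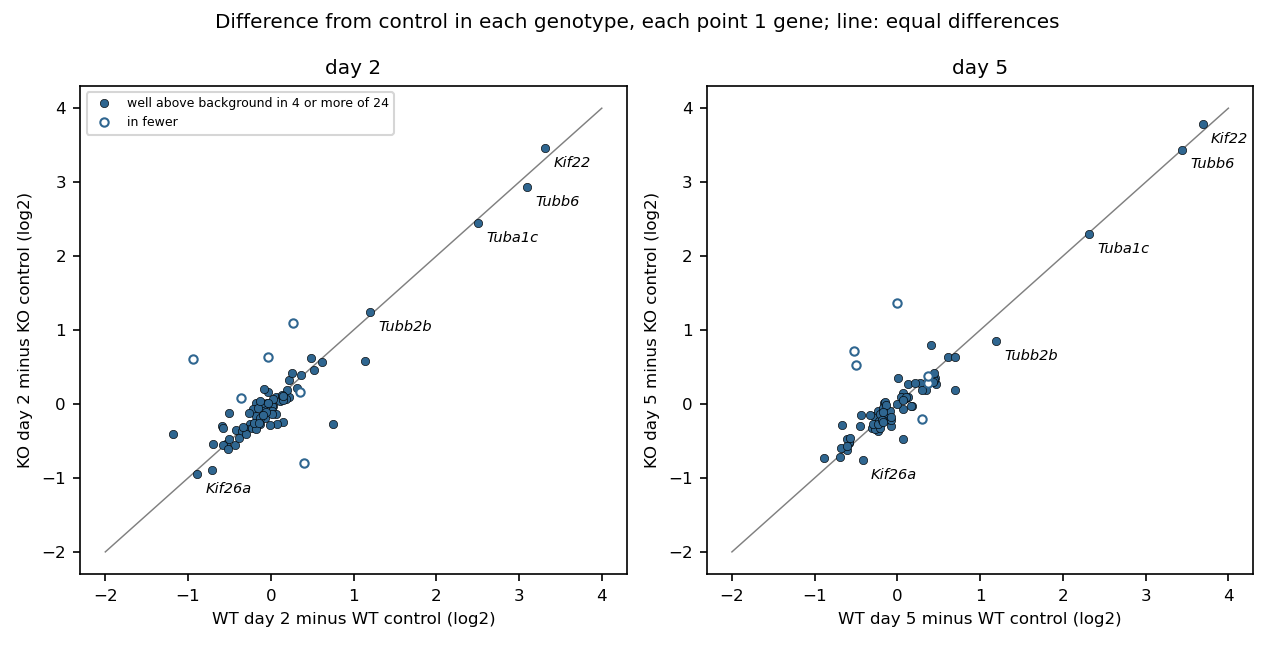
Difference from control in KO against that in WT for each gene reported by name at day 2 and day 5, in log2 units, with the line of equality. *Kif22* (3.69 in WT and 3.78 in KO at day 5), *Tubb6* and *Tuba1c* lie close to the line in the upper right corner. The other genes lie closer to 0, *Tubb2b* above 0 in both genotypes, and some lie off the line, such as *Kif2c* at day 5.

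Genes that work with microtubules and motors were counted in 3 further lists, beside 9.48% higher and 12.7% lower at day 2 and 10.2% and 13% at day 5 over all gene names. Of 29 microtubule-associated and growth proteins, 4 were higher and 7 lower at day 2, and 5 higher and 10 lower at day 5. *Stmn4*, a stathmin of neurons, rose by 2.84 and 3.31, *Stmn2*, the stathmin of growth cones, by 0.31 and 0.52, and *Dcx*, doublecortin, by 0.70 and 0.35. In the same list the stabilisers *Tppp* (-0.71 and -0.71) and *Mapt* (-0.46 and -0.49), the gene of tau, fell. Of 24 genes that fold or modify tubulin, 4 were higher and 3 lower at day 2, and 6 higher and 2 lower at day 5. *Vash2*, which helps to remove the last tyrosine of alpha tubulin, rose by 1.42 and 1.66, and *Cct8*, a chaperonin subunit that folds tubulin, by 0.32 and 0.30. Of 27 motor adaptors and regulators, 3 were higher and 9 lower at day 2, and 3 higher and 7 lower at day 5. *Ndel1*, a regulator of dynein, rose by 0.66 and 0.51 and *Kifap3*, the cargo subunit of kinesin-II, by 0.19 and 0.48, while *Fez1*, a Kif5 adaptor, fell by 0.54 and 0.75 and *Kifc2* fell by 0.79 and 0.76. The median differences of the 3 lists at day 5 were 0.00, 0.06 and -0.05, against -0.03 for all gene names.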

How the data were processed

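The authors scanned 2-colour Agilent 4x44K arrays with a different sample in each channel, and the deposited intensity values (foreground and background of each spot and channel, from Feature Extraction) were not normalized. From these, the median background was subtracted from the mean foreground with the Edwards correction, and quantile normalization was run over the 24 channels, both as in the methods, before log2 was taken. Control spots and those with an outlier flag were removed (417 values of single probes then had no measurement), spots of 1 probe were averaged, and each gene was read from its brightest probe over all samples. One mean was fitted for each group to all 24 samples with lmFit and eBayes (R 4.3.3, limma 3.58.1, statmod 1.5.0 and data.table, version 1.17.8), with Benjamini-Hochberg adjustment over 41174 probes and a threshold of 0.05. The code was tested on simulated data, where changes on probes with a large spread were often not recovered. The number of arrays limits the precision. Coordinates of probes are those of the array annotation (mm9).

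The members and all lists were chosen with earlier results of these data known. Named were 52 genes: a set of well-known members, up to 3 with the highest and 3 with the lowest day 5 difference per role among those past the F test, and others by the same kind of rule for genotype. Others are named so that each member is accounted for, except 1 that is counted but not reported here by name or in the plots. Alternatives were other background corrections, normalizations and signals, dye, slide, array and replicate number in the fit, filters, averaging of probes and leaving out each sample. The use of only the controls beside a control was chosen after seeing the data.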

Additional observations from a re-analysis of the deposited data

Results flagged for a closer look

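In 138 groups of 4 samples (23 genes in 6 groups), 8 samples lay apart from the other 3 of their group by Dixon's test, and chance flags about 5% of groups. They were *Tubb2a* in WT control replicate 1 (16.58, others 16.35 to 16.38), *Tubb2b* in KO day 2 replicate 4 (13.57, others 11.59 to 11.79), *Kif22* in KO day 5 replicate 1 (13.45, others 13.78 to 13.82) and *Kif4* in KO day 5 replicate 4 (5.54, others 4.85 to 4.93). The others were *Dync1i1* in WT day 5 replicate 3 (12.67, others 12.38 to 12.43), *Dctn1* in WT day 5 replicate 2 (12.51, others 12.67 to 12.68), *Tubg2* in WT control replicate 2 (10.15, others 9.82 to 9.88) and *Tubgcp4* in WT day 5 replicate 3 (8.95, others both 8.78 and alike). The *Tubb2b* sample was the only KO day 2 sample on slide 3.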

How the results depend on the processing

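Under other background corrections, normalizations, signals, filters and model terms, the count of called genes stayed within 1.5 times its reported value for every comparison (F test 33 to 39, day 2 25 to 34, day 5 26 to 34), and no gene passed for KO minus WT or the interaction. With only the controls beside a control, fewer samples were fitted, and 3 genes differed between day 2 and day 5, 8 and 12 passed in WT at day 2 and day 5, and 9 and 10 in KO. Leaving out each sample in turn gave 3 to 6 genes between day 2 and day 5 (3 without WT day 5 replicate 1 or 3, KO day 2 replicate 2 or KO day 5 replicate 3), 11 to 18 in WT at day 2 (11 without WT control replicate 2), 10 to 18 in KO at day 2 (10 without KO day 2 replicate 1 or 4) and 14 to 22 in KO at day 5 (14 without KO day 5 replicate 2 or 4). It gave 30 to 38 for the F test, 26 to 36 at day 2, 27 to 32 at day 5 and 16 to 21 in WT at day 5. Replicate numbers were not taken to pair samples, since the correlations of same-numbered deviations ran from -0.06 to 0.21. Only 13 of 60 were over 0.1. Samples of the same number also shared a dye, and of pairs with another number but the same dye 13 of 60 were over 0.1 too. Of 24 samples 18 correlated best with their own number, a hint from the data alone. Controls were the side not injured, so some may share a mouse with a lesioned sample, which the labels do not state. With the replicate block 36 genes passed the F test, 31 at day 2 and 30 at day 5. Of 104 day 2 and day 5 differences of named genes 55 passed, 38 of them under every alternative, and none reversed. The calls lost most often were those of *Klc3* and *Dynlt1e* at day 5 and *Dynlt3* at day 2. With only the controls beside a control these were lost together with *Dynlt1e*, *Dync2h1*, *Kif13b*, *Kif20a*, *Klc4* and *Tubb2a* at day 2 and *Dctn3*, *Tubgcp6* and *Tuba1a* at day 5. With the probes of a gene averaged, the calls of *Kif3a* and *Dynll2* were lost at both times. Those of *Kif5a*, *Dynlt3*, *Kif6*, *Kif7* and *Kif13b* were lost at day 2, and those of *Kif4*, *Klc3*, *Tuba3a* and *Tubgcp6* at day 5. The fall of *Kif5a* at day 2 was also lost with the processed signals, and the rise of *Tubb2a* at day 2 with loess and Aquantile normalization. The low signal over background of most mitotic kinesins limits what could be found there.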
